A study of Rattus norvegicus with 20 samples.

Results

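The heat shock chaperone genes Hspa8, Hsph1, Dnaja1, Dnajb1, Hsp90aa1, Hsp90ab1, Hspd1 and Hspe1 and the cold-inducible RNA-binding protein genes Cirbp and Rbm3 were followed in the hippocampus of Gunn rat pups with and without light treatment. All pups were of postnatal day 6, and were homozygous (jj) or heterozygous (Nj) for the mutant allele. Treated pups had 12 h of phototherapy in total from postnatal day 4, with 3 h on and 3 h off. Rows were taken by symbol, for a set of genes chosen with earlier results of these data known. The 10 symbols each matched 1 row of a count table that listed 32883 genes. All 10 were among the 15272 genes that passed the filter on low counts and entered the tests. No member rose or fell past the threshold of an adjusted p under 0.05 in any of 6 comparisons of genotype and light by edgeR's quasi-likelihood test. Pairs of groups that differed in light or genotype alone were compared directly. For 9 members, the 95% confidence limits of these fold changes, over all 20 libraries, lay between 0.761 and 1.23. Hsp90aa1 had few counts and the widest spread between pups, and its limits ran from 0.360 to 3.18.

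Cells meet unfolded protein with chaperones whose genes are switched on by heat shock factor 1 (HSF1), which binds repeats of the letters GAA and TTC in their promoters. HSP70 proteins grip exposed stretches of client proteins, J-domain (HSP40) proteins deliver the clients, HSP110 proteins exchange the nucleotide, and HSP90 proteins finish the folding of kinases and receptors. Cirbp and Rbm3 behave the other way round, since their transcripts accumulate when mammalian cells are mildly cooled, and Rbm3 has been linked to the upkeep of hippocampal synapses in mice.

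The promoter letters that HSF1 reads are shown first, as exact matches to the classical element in the stretch searched. A promoter without a match may still hold the element in another form or place. RefSeq promoters of build GRCr8 (250 bases before to 50 after each start) were searched on both strands, and 9 of the 10 members had an entry; Hsp90aa1 is named only. The run GAANNTTCNNGAA, which contains the shorter motif GAANNTTC, lay in 5 of these 9 promoters (Hspa8, Hsph1, Dnaja1, Hspd1 and Hspe1), against 0.798% of 33469 promoters. GAANNTTC alone lay in 6 of the 9, with Dnajb1 added, against 8.59% of promoters. The run TCCCCGCC, described as a mild-cold response element of Cirbp, lay in the promoters of Cirbp and Hsp90ab1, against 4.79% of promoters. Capitals mark 1 match in each sequence, on whichever strand it was read (in Hspd1 and Hspe1 a second match overlaps it and reaches into the lower-case letters beside it), and each sequence is given 5′ to 3′ on the strand of its gene.
Hspa8, chr8:50080293-50080322, plus strand: gcgagcgtGAAAGTTCCAGAAcgctgcggt
Hspa8, chr8:50080451-50080480, plus strand: cggaacccTTCTGGAAGGTTCtaagacagg
Dnaja1, chr5:60638405-60638434, plus strand: gccgggcgGAACTTTCCAGAAcgctcggtg
Hspe1, chr9:64084254-64084283, plus strand: gcgctcggTTCTAGAACCTTCcggaaggcc
Hspd1, chr9:64084253-64084282, minus strand: gccttccgGAAGGTTCTAGAAccgagcgcg
Cirbp, chr7:10189692-10189721, minus strand: caaacgctctgTCCCCGCCccttggtcgct
Hsp90ab1, chr9:22930204-22930233, plus strand: ggtcccgctctTCCCCGCCccctccccggt

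Hspd1 and Hspe1 are neighbours that start 290 bases apart and point away from each other. The capitals printed for them are thus the same bases read from opposite strands, counted above for both promoters. The match of Dnaja1 lies after its start, at bases 10 to 22. Hsph1 has its match close to the start, and the 250 bases upstream of it are printed whole to show that position.
Hsph1, chr12:10427118-10427367, plus strand: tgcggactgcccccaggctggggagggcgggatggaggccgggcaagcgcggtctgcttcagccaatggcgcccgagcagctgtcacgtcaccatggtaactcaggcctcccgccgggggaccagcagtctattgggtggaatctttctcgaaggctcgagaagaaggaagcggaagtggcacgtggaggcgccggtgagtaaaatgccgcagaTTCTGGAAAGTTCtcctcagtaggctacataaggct
A match describes these letters only, and nothing about binding of a factor was measured here.

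PolyA RNA of hippocampus from 20 Gunn rat pups of postnatal day 6 (P6) had been sequenced, with 5 pups in each of 4 groups. The Gunn rat lacks a working bilirubin-conjugating enzyme when homozygous (jj), and heterozygous controls (Nj, spelled Jj in another label) are not jaundiced, so every control pup carried 1 mutant allele. The jj+PT group was homozygous and light-treated, the Nj+PT group heterozygous and light-treated, the jj+No PT group homozygous and untreated, and the Nj+No PT group heterozygous and untreated. Light was LED phototherapy (PT) from P4 to P6, 12 h in total with 3 h on and 3 h off, and the study set it against no light in both genotypes. The labels give no litter, sex or body temperature, and p-values measure only the spread between these pups. Title prefixes follow the groups: all treated libraries carry J18, jj+No PT libraries carry J17, and Nj+No PT libraries carry J13, J14 or J15. Prefix and group thus cannot be told apart except for jj+PT against Nj+PT, which lies within J18. In tissue RNA of this kind, fewer cells of a type and less RNA per cell cannot be told apart.

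Total counts ran from 19301732 to 25711587 in jj+PT, 19481780 to 23070996 in Nj+PT, 16882652 to 22068495 in jj+No PT and 19098054 to 27112749 in Nj+No PT libraries. All 9 markers of hippocampal neurons were detected, and their summed level ran from 1809 to 2116 CPM (a gene's count relative to its TMM-scaled library size) over the 4 groups. Choroid plexus, which borders the hippocampus, entered some dissections: its marker Ttr passed 1000 CPM in 3 jj+PT, 2 Nj+PT, 1 jj+No PT and 1 Nj+No PT library. The library jj+No PT 3 stood apart, with the highest Ttr level (9662 CPM), and it was the lowest of the 20 libraries for 20% of all genes tested and the highest for 17.7%, where an even spread would give 5%. That library was the lowest of all for 5 members (Hsph1, Dnaja1, Hsp90aa1, Hspd1 and Rbm3) and the highest for 2 (Hspa8 and Dnajb1). Fold changes of the members that draw on jj+No PT pups are therefore given with and without it. The part of choroid plexus RNA in the members' levels was tested only by leaving out the Ttr-rich libraries.

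**Figure D1:**
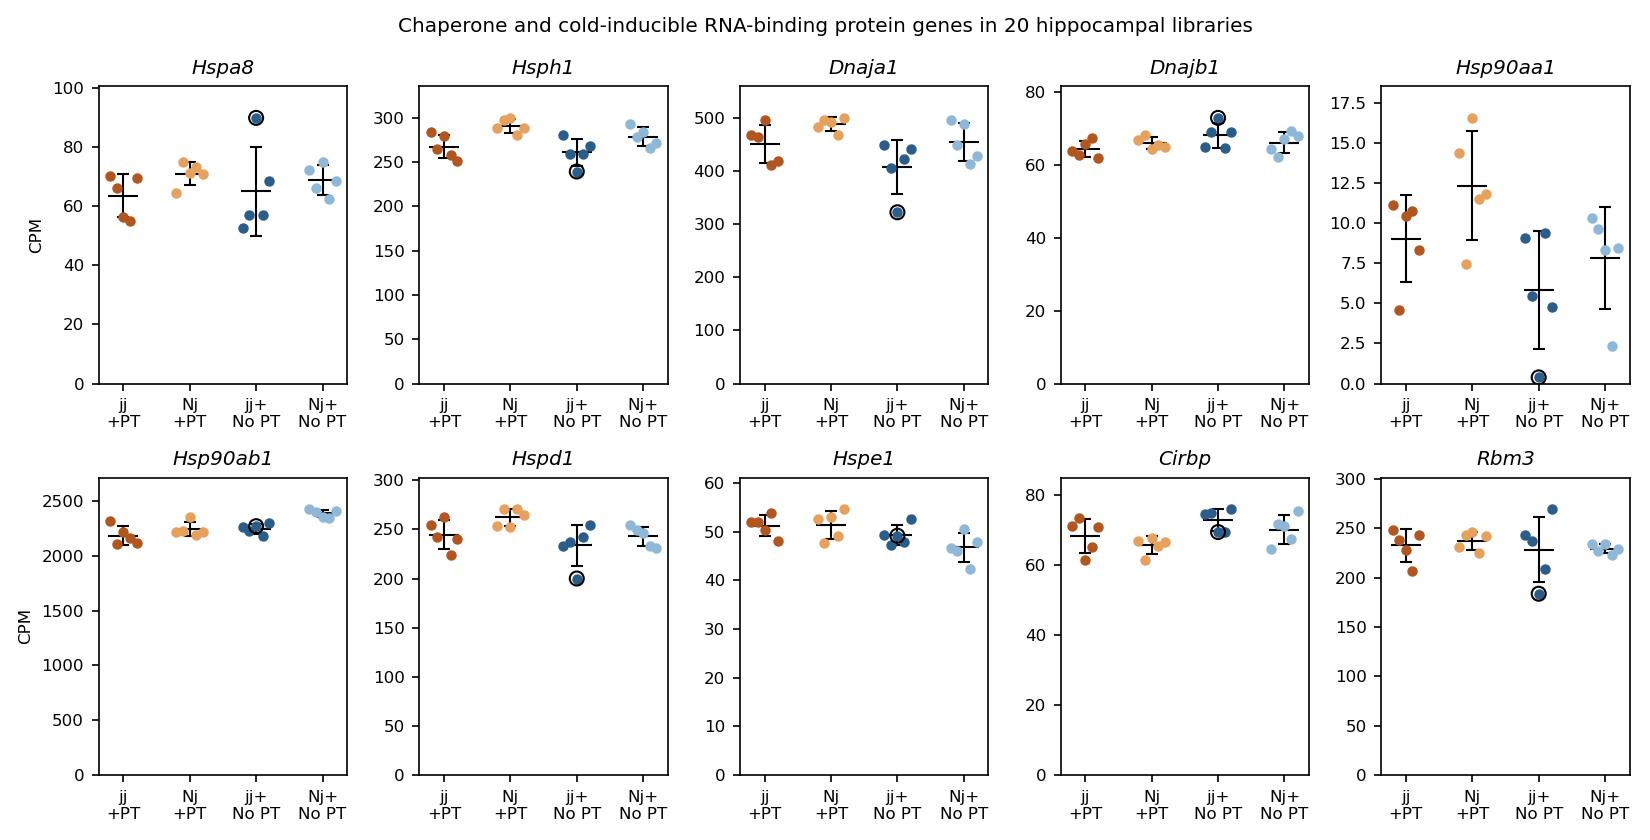
CPM of each member in the 20 libraries; points are pups, the horizontal bar is the mean and the error bar the SD of 5 pups, and each vertical axis starts at 0. The ringed point is the library jj+No PT 3, which lay at 323 CPM for Dnaja1 against 406 to 450 CPM in the other jj+No PT pups. Groups that differ in light or genotype alone overlap in every panel except that of Hsp90ab1.

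None of the 4 members of the cytosolic HSP70 machine passed the edgeR test with light or genotype, and Dnaja1 had the largest fold change with light among them in both genotypes, except that Hspa8 had it in jj pups without library jj+No PT 3. Hspa8 (ENSRNOG00000034066), a constitutive HSP70 that also strips clathrin from vesicles, had 70.3, 66.3, 56.5, 55.1 and 69.7 CPM in jj+PT pups, against 52.7, 57.1, 89.9, 57.2 and 68.7 CPM in jj+No PT pups. In heterozygotes it had 64.7, 75.0, 71.2, 73.4 and 70.9 CPM in Nj+PT pups, against 72.4, 66.0, 74.9, 62.4 and 68.5 CPM in Nj+No PT pups. The 4 groups overlapped, and the widest group was jj+No PT because of its library 3. On the log2 scale the fold change of Hspa8 was -0.03 ± 0.11 (SE) for jj+PT over jj+No PT and 0.05 ± 0.11 for Nj+PT over Nj+No PT. Without library jj+No PT 3 the sign in jj pups turned, to a log2 fold change of 0.11 ± 0.08 (edgeR adjusted p 0.538). Hspa8 has near-identical copies elsewhere in mammalian genomes, and how multiply mapped reads were counted is not stated. Its 969 to 1940 counts per library are therefore an uncertain measure of the gene.

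Hsph1 (ENSRNOG00000000902), the HSP110 exchange factor, had 284, 265, 280, 259 and 252 CPM in jj+PT pups, against 289, 297, 300, 281 and 289 CPM in Nj+PT pups. Its levels were 281, 259, 240, 259 and 268 CPM in jj+No PT pups, against 293, 279, 284, 266 and 272 CPM in Nj+No PT pups. In both pairs the jj mean was the lower one (268 ± 13.5 against 291 ± 7.69 CPM with light, 261 ± 15.1 against 279 ± 10.6 CPM without, SD, n = 5 each), and the ranges overlapped. With light, jj over Nj came to a log2 fold change of -0.12 ± 0.04 (SE), with an edgeR adjusted p of 0.724. For jj+No PT over Nj+No PT it was -0.09 ± 0.04 with an adjusted p of 0.775 by edgeR, and -0.06 ± 0.04 without library jj+No PT 3. For light against no light the log2 fold change of Hsph1 was 0.04 ± 0.04 in jj pups (0.009 ± 0.04 without library jj+No PT 3) and 0.06 ± 0.04 in Nj pups, and neither comparison passed.

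Dnaja1 (ENSRNOG00000007029), a J-domain protein that loads clients on HSP70, had 468, 465, 496, 411 and 420 CPM in jj+PT pups, against 450, 406, 323, 423 and 443 CPM in jj+No PT pups. The Nj+PT pups had 483, 497, 493, 468 and 501 CPM, against 496, 450, 489, 415 and 429 CPM in Nj+No PT pups. Treated means were the higher ones in both genotypes and the ranges overlapped, with the lowest value again in library jj+No PT 3. Light against no light gave a log2 fold change of 0.14 ± 0.07 (SE) in jj (edgeR adjusted p 0.403), 0.10 ± 0.07 in Nj (0.508) and 0.12 ± 0.05 averaged over both genotypes (0.136). Leaving out library jj+No PT 3 brought the value in jj pups to 0.07 ± 0.05 and the averaged one to 0.09 ± 0.04. Dnajb1 (ENSRNOG00000021824), the strongly heat-inducible HSP40, spanned 61.9 to 67.3 CPM in jj+PT and 64.3 to 68.3 CPM in Nj+PT pups. It spanned 64.6 to 72.8 CPM in jj+No PT and 62.0 to 69.1 CPM in Nj+No PT pups. Its log2 fold change with light was -0.08 ± 0.04 in jj (edgeR adjusted p 0.412), -0.05 ± 0.04 in jj without library jj+No PT 3, and -0.003 ± 0.04 in Nj pups, and its ranges overlapped in every pair of groups.

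Among groups that differed in light or genotype alone, HSP90 gave the only member whose levels did not overlap. Hsp90ab1 (ENSRNOG00000019834), the constitutive cytosolic HSP90, had 2266, 2230, 2270, 2179 and 2297 CPM in jj+No PT pups, against 2424, 2400, 2357, 2344 and 2411 CPM in Nj+No PT pups. Every jj+No PT pup lay under every Nj+No PT pup (2248 ± 45.6 against 2387 ± 34.6 CPM, SD, n = 5 each), as did 0.524% of all genes tested, while 1% did so in either direction. The same separation was found with size factors of the median-ratio kind. For light in Nj, light in jj and jj+PT over Nj+PT, 0 members separated, against 6.46%, 2.96% and 1.2% of genes. This untreated difference of Hsp90ab1 was a log2 fold change of -0.09 ± 0.04 (SE), with an edgeR adjusted p of 0.775 and an unadjusted p of 0.0283, and it was -0.09 ± 0.04 without library jj+No PT 3.

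With light, Hsp90ab1 had 2221, 2227, 2354, 2193 and 2217 CPM in Nj+PT pups, so 4 of the 5 lay below all Nj+No PT pups and library Nj+PT 3 lay above the lowest of them. Its log2 fold change in Nj was -0.09 ± 0.04 (SE) with an edgeR adjusted p of 0.181. DESeq2, the second tool, gave -0.09 ± 0.03 with an adjusted p of 0.023 and called it. In jj+PT pups the levels were 2321, 2108, 2219, 2161 and 2112 CPM, which overlapped those of jj+No PT pups, with a log2 fold change of -0.04 ± 0.04 (-0.03 ± 0.04 without library jj+No PT 3). Averaged over genotypes the change with light was -0.07 ± 0.03 (edgeR adjusted p 0.113; -0.06 ± 0.02 without that library), and DESeq2 called this comparison too over all 20 libraries (-0.06 ± 0.02, adjusted p 0.0142).

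Hsp90aa1 (ENSRNOG00000007219), the stress-inducible HSP90, had 7 to 375 counts per library and the widest spread of all members. Its levels were 11.1, 4.60, 10.5, 10.7 and 8.31 CPM in jj+PT pups, against 9.09, 5.48, 0.381, 9.38 and 4.75 CPM in jj+No PT pups. The Nj+PT pups had 14.4, 7.48, 16.6, 11.5 and 11.8 CPM, against 10.3, 9.67, 8.34, 2.36 and 8.47 CPM in Nj+No PT pups. The treated means were the higher ones in both genotypes and each pair overlapped. Its log2 fold change with light was 0.63 ± 0.49 (SE) in jj, 0.65 ± 0.47 in Nj and 0.64 ± 0.34 averaged (edgeR adjusted p 0.62, 0.521 and 0.261). The 95% limits of the averaged fold change ran from 0.946 to 2.57, an interval that holds both no difference and a 2-fold higher level. Without library jj+No PT 3, where 7 reads were counted, the value in jj pups was 0.34 ± 0.37 and the averaged one 0.49 ± 0.25. Near-identical copies of Hsp90aa1 exist in mammalian genomes as well, and the value of this row is uncertain for the same reason as that of Hspa8.

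The mitochondrial chaperonin pair shares a promoter, and both genes had higher means with light in each genotype. Hspe1 (ENSRNOG00000051624), the HSP10 lid of the chamber, had 52.5, 47.6, 52.9, 49.1 and 54.6 CPM in Nj+PT pups, against 46.8, 46.1, 50.6, 42.4 and 47.96 CPM in Nj+No PT pups. It had 52.0, 52.1, 50.4, 53.8 and 48.05 CPM in jj+PT pups, against 49.4, 47.3, 49.2, 47.9 and 52.6 CPM in jj+No PT pups. The ranges overlapped in both genotypes. These levels gave a log2 fold change of 0.13 ± 0.05 (SE) in Nj (edgeR adjusted p 0.14), 0.06 ± 0.05 in jj (0.675) and 0.10 ± 0.04 averaged (0.0927), the lowest adjusted p of the members. Without library jj+No PT 3 they were 0.06 ± 0.05 in jj and 0.10 ± 0.04 averaged. Leaving out library Nj+No PT 3 gave 0.11 ± 0.04 with an edgeR adjusted p of 0.0435, and leaving out library jj+No PT 5 gave 0.12 ± 0.04 with an adjusted p of 0.0449, both past the threshold. Hspd1 (ENSRNOG00000014525), the HSP60 chamber itself, spanned 224 to 262 CPM in jj+PT and 253 to 270 CPM in Nj+PT pups. Its range was 200 to 255 CPM in jj+No PT and 232 to 254 CPM in Nj+No PT pups. Its averaged log2 fold change with light was 0.09 ± 0.04 (edgeR adjusted p 0.145), and 0.07 ± 0.03 without library jj+No PT 3. Although their starts share a stretch of promoter, the levels of Hspd1 and Hspe1 from pup to pup had a Pearson r of -0.02 and a Spearman rho of -0.12 (20 libraries, group means removed, permutation adjusted p 0.962 and 0.821), and r was 0.12 without the 2 libraries farthest from the median of Hspd1.

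Cirbp and Rbm3, which rise in cooled cells, had averaged fold changes with light of opposite sign, and neither passed the test. Cirbp (ENSRNOG00000015999) had 71.1, 73.4, 61.6, 65.2 and 70.9 CPM in jj+PT pups, against 74.6, 75.0, 69.5, 69.5 and 76.0 CPM in jj+No PT pups. Its levels were 67.1, 61.5, 67.8, 65.6 and 66.6 CPM in Nj+PT pups, against 64.7, 71.9, 71.1, 67.6 and 75.5 CPM in Nj+No PT pups. Treated means were the lower ones in both genotypes and the ranges overlapped. In log2 terms the fold change was -0.09 ± 0.05 (SE) in jj (edgeR adjusted p 0.462), -0.09 ± 0.05 in Nj (0.343) and -0.09 ± 0.04 averaged (0.106). The 95% limits of the averaged fold change were 0.890 and 0.988, and without library jj+No PT 3 the value was -0.10 ± 0.05 in jj and -0.10 ± 0.04 averaged (0.0913).

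Rbm3 (ENSRNOG00000005387) had 248, 238, 228, 206 and 243 CPM in jj+PT pups, against 243, 237, 184, 209 and 269 CPM in jj+No PT pups. It had 231, 243, 246, 224 and 242 CPM in Nj+PT pups, against 234, 227, 234, 223 and 229 CPM in Nj+No PT pups. The jj+No PT pups held both the lowest and the highest of the 20 values, and all groups overlapped. The averaged log2 fold change with light was 0.04 ± 0.05 (SE), with 95% fold limits of 0.956 and 1.10, and it was 0.01 ± 0.04 without library jj+No PT 3. In jj pups alone it was 0.03 ± 0.07 with that library and -0.04 ± 0.06 without it.

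**Figure D2:**
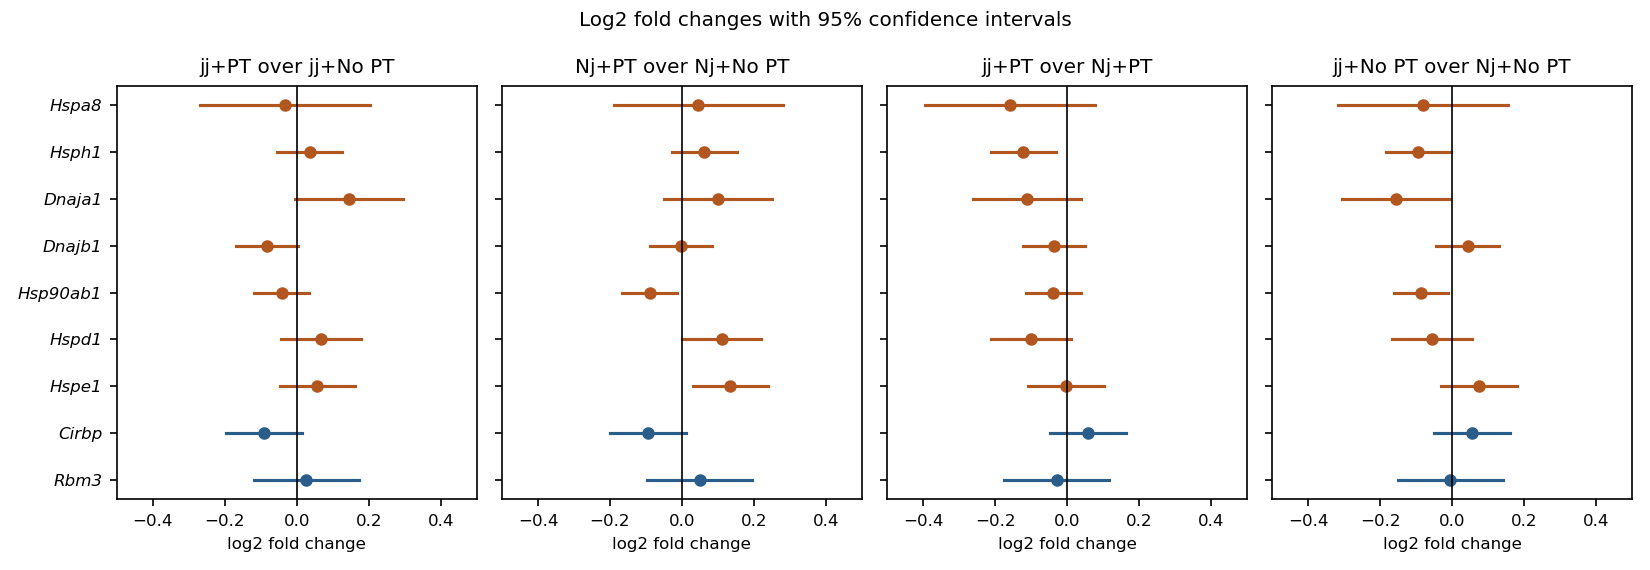
Log2 fold changes (points) with 95% confidence intervals (lines) of the 9 members other than Hsp90aa1 in the 4 comparisons between pairs of groups; heat shock genes are brown and cold-inducible genes blue. All intervals lie within about 0.4 of 0, and for jj+PT over Nj+PT the point of Cirbp alone lies to the right of 0.

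For light in Nj pups (Nj+PT over Nj+No PT), 0 of the 10 members passed with edgeR, while 4% of the genes tested did. At an unadjusted p under 0.05 there were 2 members, against 18.1% of all genes. DESeq2 called 1 member, among 1009 genes in all. The median log2 fold change of the members was 0.06, against 0.00 over all genes tested, and 7 members were above 0 and 3 below. Fold limits of the 9 members without Hsp90aa1 ran from 0.870 to 1.21. For light in jj pups (jj+PT over jj+No PT), 0 of 10 passed with edgeR or DESeq2, against 0.164% of genes with edgeR, and 0 members were under an unadjusted 0.05, against 13%. The median was 0.03 against 0.00 over all genes, and the fold limits of the 9 ran from 0.8294 to 1.23. Without library jj+No PT 3 the members' median in jj was 0.01, and the log2 fold changes of the 9 ran from -0.10 to 0.11. The 2 comparisons use different pups, and their difference, the genotype by light interaction, was passed by 0 members with edgeR or DESeq2 and by 0% of genes, with 0 members and 3.41% of genes under an unadjusted 0.05.

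Averaged over both genotypes, 10.1% of the genes tested and 0 of the 10 members differed between treated and untreated pups with edgeR. DESeq2 called 1 member (Hsp90ab1), among 1957 genes in all. Light and title prefix cannot be told apart in this comparison. Without the Ttr-rich libraries the edgeR count over all genes fell from 1541 to 424. At an unadjusted p under 0.05 there were 5 members (Dnaja1, Hsp90ab1, Hspd1, Hspe1 and Cirbp), against 24.6% of all genes. The median absolute log2 fold change was 0.08 for the members and 0.08 for all genes tested. Of the 8 heat shock members, Dnajb1 and Hsp90ab1 had fold changes below 0 and the other 6 above 0. Cirbp was below 0 and Rbm3 above 0.

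Between genotypes, jj+PT pups were set against Nj+PT pups within a single title prefix. With edgeR 0 of 10 members and 0% of genes passed, with 1 member (Hsph1) and 6.62% of genes under an unadjusted 0.05, and DESeq2 called 0 members. Levels of 9 members were lower in jj+PT and only Cirbp was higher, with a median log2 fold change of -0.07 against 0.00 over all genes. Fold limits of the 9 without Hsp90aa1 ran from 0.761 to 1.121. In untreated pups, jj+No PT over Nj+No PT, 0 of 10 members and 0% of genes passed with edgeR, and DESeq2 called 0 members. Unadjusted p under 0.05 was met by 3 members (Hsph1, Dnaja1 and Hsp90ab1), against 6.36% of genes, and 7 of the 10 fold changes were below 0. After library jj+No PT 3 was left out, 2 members met it (Hspa8 and Hsp90ab1, no longer Hsph1 and Dnaja1) and 6 of the 10 were below 0. Hspa8 then stood at a log2 fold change of -0.22 ± 0.08 (SE, edgeR adjusted p 0.998) and Dnaja1 at -0.08 ± 0.05.

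The spread between pups of a group differed among the members. Hsp90ab1 had a mean coefficient of variation (CV) within groups of 2.60%, and 0% of 23 genes of like level (within 0.5 on the log2 scale) had a smaller one. Dnajb1 was similarly even, at 3.84%, with 8.82% of 2357 genes of like level below it. At the other end, Hspa8 had a CV of 11.8% and Hsp90aa1 of 40.4%, above 95.6% and 97.6% of genes of like level. Dnaja1 (7.72%), Rbm3 (6.85%), Hspd1 (5.58%), Cirbp (5.29%), Hspe1 (5.12%) and Hsph1 (4.32%) lay between. Without library jj+No PT 3 the CV was 8.96% for Hspa8, 32.9% for Hsp90aa1, 5.75% for Dnaja1 and 5.83% for Rbm3, and 2.65% for Hsp90ab1.

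Members were next compared pup by pup, using log2 CPM with each group's mean removed, over the 20 libraries. Of 45 pairs, 2 passed a two-sided permutation test within groups (100000 resamples, Benjamini-Hochberg over the 45 pairs). Hsph1 and Dnaja1, the exchange factor and the client loader of HSP70, followed each other most closely, with Pearson r 0.887 (permutation p 1e-05, the smallest that the resamples can give, adjusted 0.00045) and Spearman rho 0.862 (adjusted 0.00135). Leaving out the 2 libraries farthest from the median gave r 0.844, leaving out jj+No PT 3 gave 0.860 (adjusted 0.0081) and leaving out the Ttr-rich libraries gave 0.861 over 13 libraries (adjusted 0.0394). Dnaja1 and Hspd1 had r 0.846 (permutation p 0.00079, adjusted 0.0178) and rho 0.738 (adjusted 0.0468). That relation rested in part on few libraries, with r 0.667 without the 2 farthest, 0.689 without jj+No PT 3 (adjusted 0.116) and 0.50 without the Ttr-rich libraries (adjusted 0.406). Cirbp and Rbm3 had r 0.484 and rho 0.612 (permutation, adjusted 0.106 and 0.0865), and r was 0.613 without the 2 farthest. Without the Ttr-rich libraries Hsp90ab1 with Rbm3 also passed, with r 0.828 over 13 libraries (permutation, adjusted 0.00675), against r 0.274 over all 20 (adjusted 0.449).

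High correlations were common in these libraries, so the pair values need their background. An absolute r of at least 0.7 was reached by 14.2% of the 15271 other genes for Dnaja1, 11.2% for Hspd1, 7.79% for Hsph1 and 5.42% for Rbm3. It was reached by 0.0524% for Hspe1, 0.072% for Cirbp and 0.321% for Hsp90ab1. Without library jj+No PT 3 the shares fell to 5.42% for Dnaja1, 2.2% for Hspd1, 3.12% for Hsph1 and 0.504% for Rbm3, and were higher at 1.72% for Hsp90ab1, 0.308% for Cirbp and 0.118% for Hspe1. Leaving that library out also changed which pairs passed: Hsph1 with Dnaja1 did in both, and Hsph1 with Hsp90ab1 (r 0.728, permutation, adjusted 0.0436) took the place of Dnaja1 with Hspd1.

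**Figure D3:**
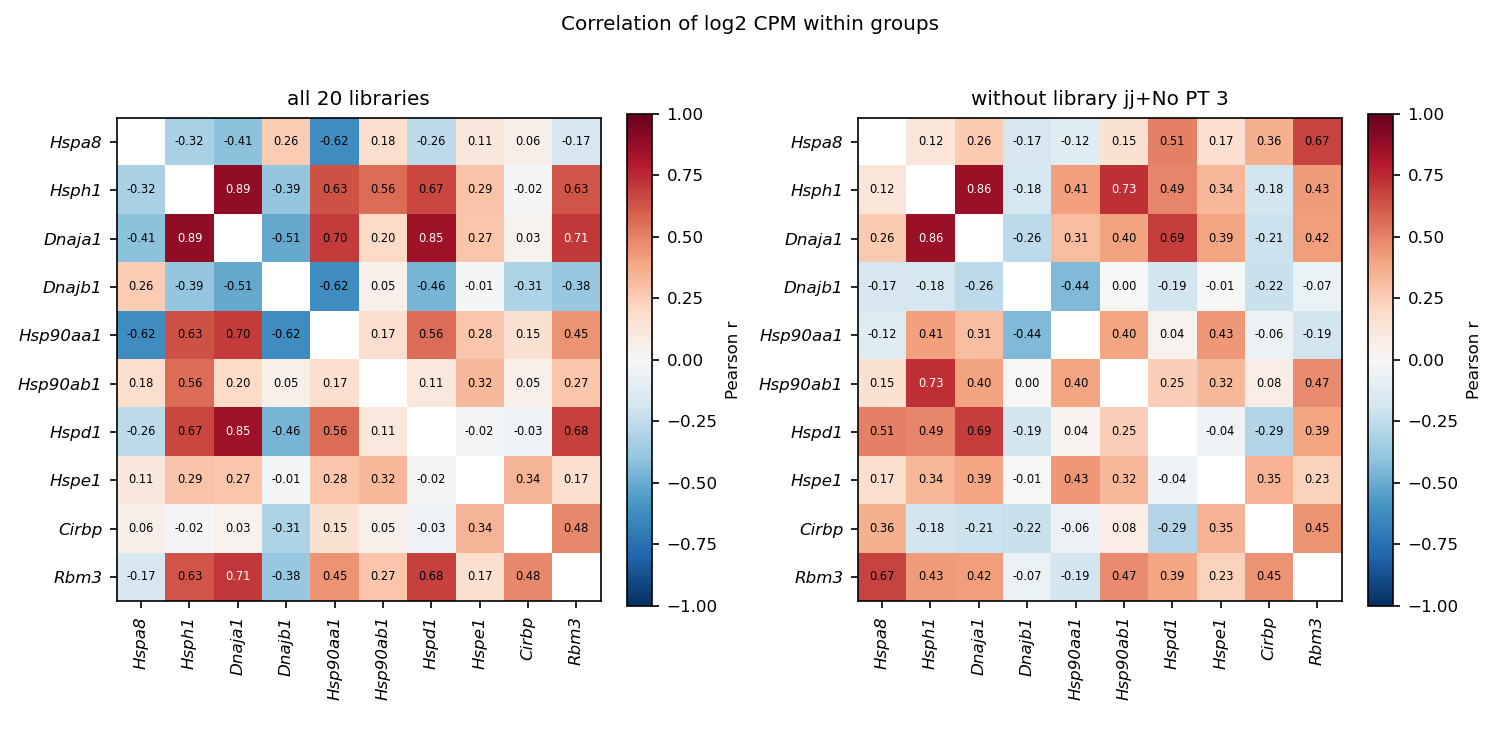
Pearson r between members over 20 libraries (left) and over 19 libraries without jj+No PT 3 (right), each on log2 CPM with group means removed; red is positive and blue negative. Hsph1 with Dnaja1 stays at 0.86 on the right, while Hspa8 with Hsp90aa1 is -0.62 on the left and -0.12 on the right.

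The genes whose levels most resembled those of single members over the 20 libraries are given as a description. For Hsph1 they were Eif3m (r 0.941), Hnrnph1 (0.922), Eif2s2 (0.920), Cct8 (0.902) and Rnf146 (0.898), and all 5 had r of at least 0.859 without library jj+No PT 3. Rbm3 was most like Hnrnpdl (0.914), Ndufaf1 (0.905), Abhd13 (0.878), Clcn3 (0.872) and Rpp30 (0.871). Without library jj+No PT 3 these values were 0.873, 0.826, 0.779, 0.751 and 0.741. Cirbp was most like Ldlrad3 (0.793), Cog2 (0.791), Rasal3 (0.735), Cenph (0.735) and N6amt1 (0.723), so its 5 nearest genes were other ones than those of Rbm3. Hspa8 was most like Nfam1 (0.792), Crhbp (0.764), Ssr4 (0.764), Ccdc65 (0.763) and Cfap20 (0.757). In the same order, the values without library jj+No PT 3 were 0.756, 0.7025, 0.537, 0.544 and 0.671.

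The rest of the chaperone network was read through 10 lists with 146 genes, of which 132 were tested. Averaged over genotypes, 3 of the 132 were higher in treated pups (Hspa4l, Dnajc27 and Hsbp1) and 4 were lower (Bag6, Carhsp1, Csdc2 and Ybx1). That was 5.3% in all, against 10.1% of all genes tested (4.35% higher and 5.74% lower). In Nj pups alone, Hspa4l rose and Bag6 and Carhsp1 fell, 2.27% against 4% (1.49% higher and 2.51% lower). Without library Nj+No PT 5, 0 listed genes passed in Nj pups, and without Nj+No PT 4, Nj+PT 2 or Nj+PT 5 only Bag6 did. No listed gene passed for light in jj pups, for either genotype comparison or for the interaction with edgeR, while DESeq2 called Hspa4l (log2 fold change 0.22, adjusted p 0.044) and Carhsp1 (-0.22, 0.0258) for light in jj. In Nj pups the 3 calls became 6 with the compared groups alone, 5 with DESeq2, 5 with J15 libraries only and 1 (Bag6) without the Ttr-rich libraries. The co-chaperones of HSP90 (17 tested), small heat shock proteins (6), cytosolic chaperonin and prefoldin (14), mitochondrial chaperones and proteases (14), ER chaperones (15) and CDC-like kinases (4) held 0 genes past the edgeR threshold for light averaged over genotypes.

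Hspa4l, an HSP110 relative of Hsph1, had 96.7, 96.2, 113, 93.4 and 97.1 CPM in jj+PT pups, against 88.6, 87.5, 72.8, 87.5 and 92.6 CPM in jj+No PT pups. It had 105, 110, 106, 107 and 113 CPM in Nj+PT pups, against 94.8, 98.5, 93.6, 90.7 and 83.8 CPM in Nj+No PT pups. All treated pups lay above all untreated pups of their genotype. Separation in either direction was found in 2.96% of genes in jj and 6.46% in Nj pups. The share of genes separated in both genotypes was not counted. The averaged log2 fold change of Hspa4l was 0.22 ± 0.04 (SE, edgeR adjusted p 0.00211). Bag6, which guards freshly made membrane proteins, fell with light by 0.19 on the log2 scale (SE 0.04, edgeR adjusted p 0.00472). It averaged 230 ± 15.1 CPM in jj+PT and 249 ± 19.1 CPM in jj+No PT pups, and 218 ± 10.5 CPM in Nj+PT and 263 ± 18.7 CPM in Nj+No PT pups (SD, n = 5 each). Dnajc27, a small GTPase with a J domain, rose by 0.13 ± 0.04 (0.027) and Hsbp1, a small protein that binds HSF1, rose by 0.14 ± 0.04 (0.0293, both edgeR adjusted p). Hsf1 itself had an averaged log2 fold change of -0.005 ± 0.06 (edgeR adjusted p 0.974).

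The list of cold shock domain proteins and RBMX relatives had 3 of 8 genes lower and 0 higher in treated pups, averaged over genotypes. The 3 were Carhsp1, Csdc2 and Ybx1, while Rbmx, Rbmx2 and Rbmxl1 did not pass (edgeR adjusted p 0.167, 0.866 and 0.18). Over all genes tested, 5.74% were lower and 4.35% higher. The median log2 fold change of the list was -0.09, against 0.00 over all genes. Carhsp1, a cold shock domain protein that binds transcripts, fell by 0.23 on the log2 scale (SE 0.04, edgeR adjusted p 0.00138). Its levels were 49.4, 48.7, 52.4, 50.6 and 42.2 CPM in jj+PT pups, against 56.9, 54.9, 58.9, 55.3 and 57.7 CPM in jj+No PT pups. In Nj+PT pups it had 51.3, 46.1, 51.7, 53.4 and 44.8 CPM, against 56.1, 55.3, 56.9, 63.2 and 58.4 CPM in Nj+No PT pups. Every treated pup lay below every untreated pup of its genotype here too. Separation in either direction was found in 2.96% of genes in jj and 6.46% in Nj pups. Csdc2 fell by 0.12 (SE 0.03, edgeR adjusted p 0.0172) and Ybx1, an abundant binder of mRNA, fell by 0.10 (SE 0.03, 0.0251). Calls of Csdc2, Ybx1, Dnajc27 and Hsbp1 were lost when the Ttr-rich libraries were left out, whereas those of Hspa4l, Bag6 and Carhsp1 held under all 25 alternatives. Hsbp1 was also lost without jj+No PT 4, jj+PT 3, Nj+No PT 4 or Nj+No PT 5, over values of 0.12 to 0.18 on the log2 scale. Ybx1 was also lost without jj+No PT 5, jj+PT 4, jj+PT 5, Nj+No PT 4, Nj+No PT 5 or Nj+PT 5, over values of -0.11 to -0.07.

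Hspa1b, Hspb1 and Hspa5, stress genes outside the members, did not pass the edgeR test with light averaged over genotypes. Hspa1b, an inducible HSP70, stayed between 0.544 and 1.70 CPM in all 20 libraries, and its averaged log2 fold change with light was -0.22 ± 0.17 (SE, edgeR adjusted p 0.439). Hspa1a was on the HSP70 list but was not among the genes tested. Hspb1, a small heat shock protein, averaged 3.31 ± 1.58 CPM in jj+PT and 3.38 ± 2.11 CPM in jj+No PT pups, and 3.12 ± 1.34 CPM in Nj+PT and 2.10 ± 0.398 CPM in Nj+No PT pups (SD, n = 5 each). Hspa5, the HSP70 of the endoplasmic reticulum, had an averaged log2 fold change of 0.09 ± 0.07 (edgeR adjusted p 0.479).

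**Figure D4:**
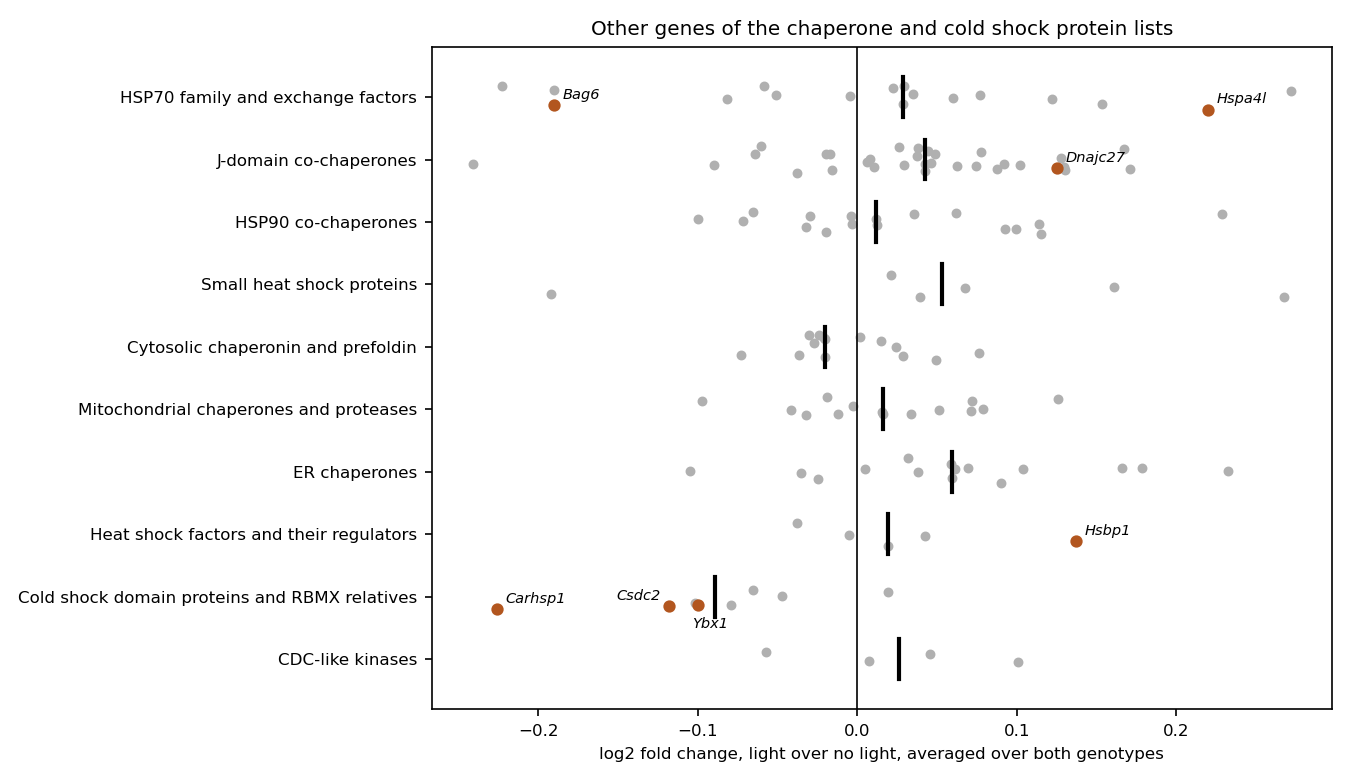
Log2 fold change with light, averaged over both genotypes, of each tested gene in the 10 lists; black bars are list medians and brown points are genes past the edgeR threshold. The 7 named genes are the ones that passed, and the list of cold shock domain proteins and RBMX relatives has its median at -0.09.

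Markers of other cell types moved with light beside these results. Microglia markers summed to 161 to 188 CPM in jj+PT and 142 to 171 CPM in jj+No PT pups, and to 149 to 177 CPM in Nj+PT and 142 to 155 CPM in Nj+No PT pups. Astrocyte markers summed to 2845 to 3084 CPM in jj+PT and 2535 to 2922 CPM in jj+No PT pups, and to 2839 to 3092 CPM in Nj+PT and 2459 to 3049 CPM in Nj+No PT pups. For light averaged over genotypes 3 of the 10 microglia markers rose by edgeR, as did 3 of 9 astrocyte markers, with 1 astrocyte marker lower. Higher with light were also 1 of 9 neuronal and 1 of 8 oligodendrocyte-lineage markers, and 2 of 8 endothelial markers were lower. Over all genes tested, 4.35% were higher and 5.74% lower in this comparison. The marker calls were not repeated without the Ttr-rich libraries. Meningeal markers summed to 460 to 1001 CPM in jj+PT and 422 to 1165 CPM in jj+No PT pups, and to 453 to 919 CPM in Nj+PT and 435 to 881 CPM in Nj+No PT pups. Red blood cell markers summed to 537 to 930 CPM in jj+PT and 414 to 1010 CPM in jj+No PT pups, and to 496 to 726 CPM in Nj+PT and 624 to 906 CPM in Nj+No PT pups. Choroid plexus markers summed to 110 to 8736 CPM in jj+PT (median 6115) and 48.6 to 10888 CPM in jj+No PT pups (median 104), and to 61.6 to 4559 CPM in Nj+PT (median 548) and 46.2 to 4749 CPM in Nj+No PT pups (median 533). All 11 tested choroid plexus markers had averaged log2 fold changes above 0 (median 0.71), and 8 of 9 meningeal markers had values below 0 (median -0.32). Of the meningeal, red blood cell and choroid plexus markers, 0 of 9, 0 of 7 and 0 of 11 passed with edgeR for light averaged over genotypes. Apart from leaving out the Ttr-rich libraries, the part of these cell types in the members' values was not tested.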

How the data were processed

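The authors deposited 1 table of raw read counts per gene for 20 libraries, with rat Ensembl identifiers and symbols and no normalization. Per the submitters' processing notes, FastQC, TopHat2 2.0.13, Subread and edgeR were used. A build of the mouse genome is named there although the table lists rat genes, so no coordinates are drawn from it. Whether counting used strand or multiply mapped reads is not given in the sources used here.

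From these counts, edgeR 4.0.16 (R 4.3.3) was run with filterByExpr, TMM and a robust quasi-likelihood fit of all 20 libraries with a mean per group. Tests were two-sided F-tests with Benjamini-Hochberg adjustment over 15272 genes. Standard errors came from the F statistic. CPM are not divided by transcript length, so levels were not compared between genes, except to pick genes of like CPM as background for the CV. Correlations used log2(CPM + 0.5) with group means removed.

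Alternatives were DESeq2 1.42.0, median-ratio size factors, no count filter, the compared groups alone, leaving out libraries above 1000 CPM of Ttr, J15 libraries only among Nj+No PT, and leaving out each library. Correlations without jj+No PT 3, separation under other size factors, and the same alternatives for listed genes were added after seeing the data. The members, the lists and the tests were chosen with earlier results of these data known. Named genes were all members, up to 4 genes per list with the lowest p among those called, Hspa1a, Hspa1b, Hspb1, Hspa5 and Hsf1, and the 5 genes most like each of Cirbp, Rbm3, Hsph1 and Hspa8. No 2 libraries of a group agreed within sampling noise. The series text speaks of n = 6 for untreated pups, and 5 per group were analysed.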

Additional observations from a re-analysis of the deposited data

Results flagged for a closer look

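Of the 40 sets of 5 libraries (10 members in 4 groups), 2 held a library far from the others of its group, and chance alone marks about 1 set in 20. Hsp90aa1 in Nj+No PT library 4 stood at 2.36 CPM, and the next lowest Nj+No PT library stood at 8.34 CPM. Hsp90ab1 in Nj+PT library 3 stood at 2354 CPM, and the next highest Nj+PT library stood at 2227 CPM. Library jj+No PT 3 was marked for 0 members by this measure, although it was an extreme of all 20 libraries for 7 of them.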

How the results depend on the processing

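No member was called in any comparison with RLE size factors, without a count filter, with the compared groups alone, without the Ttr-rich libraries or with J15 libraries only. DESeq2 called 1 member for light in Nj and 1 for light averaged, both Hsp90ab1, and leaving out single libraries gave 0 to 1 member for light averaged (Hspe1). Counts over all genes moved more. For light in Nj, 611 became 112 without the Ttr-rich libraries, 1009 with DESeq2 and 152 to 651 without single libraries, with 152, 159, 272 and 253 without Nj+No PT 4, Nj+No PT 5, Nj+PT 2 and Nj+PT 5. For light in jj, 25 became 3 with the compared groups alone, 0 without the Ttr-rich libraries, 271 with DESeq2 and 0 to 43 without single libraries. It was 0 without jj+No PT 4, jj+PT 2, jj+PT 3 or jj+PT 5, 5 without jj+PT 4, 16 without jj+No PT 1, 39 without jj+No PT 3 and 43 without jj+PT 1. For light averaged, 1541 became 424 without the Ttr-rich libraries, 1957 with DESeq2 and 1020 to 1697 without single libraries. The 1020 came without Nj+No PT 4. The 0 genes of jj+No PT over Nj+No PT, of jj+PT over Nj+PT and of the interaction became 0 to 1 without single libraries (1 without Nj+No PT 5 for the first of these, and 1 without jj+PT 1 for each of the others), and DESeq2 gave 1 for jj+No PT over Nj+No PT and 2 for jj+PT over Nj+PT. The cause was not tested.

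Fold changes near 0 turned sign. With J15 libraries only, Dnajb1 was at -0.0048 for jj+No PT over Nj+No PT. Without the Ttr-rich libraries, Hspd1 was at 0.0043 and Rbm3 at 0.075 in that comparison. The same change put Hspa8 at 0.10, Hsp90ab1 at 0.013 and Rbm3 at -0.015 for light in jj, and Hsp90ab1 at 0.0063, Cirbp at -0.011 and Rbm3 at 0.022 for jj+PT over Nj+PT. It put the interaction at 0.050 for Hspa8, 0.0095 for Hsph1 and -0.093 for Cirbp. Without single libraries, Rbm3 ran from -0.069 to 0.066 for jj+No PT over Nj+No PT, from -0.038 to 0.10 for light in jj and from -0.049 to 0.017 for jj+PT over Nj+PT. Dnajb1 ran from -0.019 to 0.017 for light in Nj, Hspe1 from -0.031 to 0.024 for jj+PT over Nj+PT, and Hspa8 from -0.10 to 0.11 for light in jj and -0.028 to 0.081 averaged. The interaction ran from -0.15 to 0.066 for Hspa8, -0.028 to 0.081 for Dnaja1, -0.31 to 0.23 for Hsp90aa1, -0.023 to 0.043 for Cirbp and -0.091 to 0.046 for Rbm3. No paired analysis was possible because the replicate numbers only name pups within a group and link no pups across groups. Hsp90aa1 has the widest interval of the members, beside a spread between pups above that of 97.6% of genes of like level.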
